A study of Mus musculus with 54 samples.

Results

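Microglia that had taken up alpha-synuclein (aSyn) and had then been kept for 150 min with other microglia were compared with microglia that had taken up aSyn and were not labelled as co-cultured. The comparison holds 8 of the 54 libraries of the study, which are the 4 libraries of aSyn-loaded cells at 150 min and the 4 aSyn-only libraries, paired by the experiment number in their titles. All cells of every group were primary microglia of C57BL/6 mice, shaken off an astrocyte layer grown from neonatal brains in medium with calf serum and L929 cell supernatant, and the cells of 2 brains shared a flask. The cells to be loaded ("donors") received 1 µM Atto-488-labelled aSyn for 14 h, and a second population ("acceptors") received the dye CellTracer Violet for 15 min and no aSyn. Both populations were mixed, and after 150 min they were separated again by flow cytometry before RNA was taken. The aSyn-only cells received the same 14 h of aSyn. Whether they also passed the sorter, and at which clock time they were harvested relative to the mixed cells, is not given in the sources used here, so co-culture, sorting and elapsed time cannot be told apart in this comparison. Also used were aSyn-loaded cells at 0 min (3 libraries, none of experiment 4), 15 and 30 min (4 each), 60 min (3, none of experiment 2) and 300 min (4). Acceptors at 150 min (4) and untreated microglia (6 libraries, of which same-numbered ones were summed to 4) were used as well. The title of the series names the formation of a degradation network between microglia.

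Read totals of the 8 libraries were between 11989871 and 15537493 counts. Experiment 4 stood apart: its 2 libraries had 17.7% and 13.4% of their counts on the ribosomal RNA gene Rn45s, against 4.17% to 9.24% in the other 6. The 9 microglia markers Aif1, Cx3cr1, P2ry12, Tmem119, Csf1r, Itgam, Trem2, Tyrobp and C1qa summed to 2679 and 2665 CPM (counts scaled to library size) in experiment 4 and to 6391 to 7518 CPM in the others, with little difference between the partners of a pair. Astrocyte markers summed to at most 38.0 CPM, neuronal markers to at most 7.93 CPM and fibroblast and mural markers to at most 15.0 CPM. Endothelial markers summed to 9.05 to 35.4 CPM and border macrophage markers to 753 to 1042 CPM. The 7 oligodendrocyte lineage markers summed up (Olig1, Olig2, Sox10, Pdgfra, Cspg4, Mbp and Mog) had 76.5 to 161 CPM in aSyn-only cells and 66.0 to 169 CPM at 150 min. Most of this was Mbp, a myelin gene, with 102, 84.5, 131 and 60.5 CPM and 59.2, 63.2, 109 and 64.5 CPM (paired adjusted p in edgeR 0.543). The part of these markers in the results was not tested, and fewer cells of a type cannot be told apart from less RNA per cell in bulk libraries.

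Alpha-synuclein is a neuronal protein that aggregates in Parkinson's disease, and microglia, the macrophages of the brain, take up and degrade such aggregates. Immediate early genes (the AP-1 subunits of the FOS and JUN families, EGR factors and others) are transcribed within minutes of a stimulus without new protein synthesis and are as quickly switched off again. Their products include transcription factors and also brakes, such as the phosphatase encoded by Dusp1, which inactivates MAP kinases. In macrophages, Klf2 and Klf4 encode Krüppel-like factors that restrain inflammatory transcription, and Cxcr4 encodes the receptor for the chemokine CXCL12.

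In the fit that estimates the spread from all 14 groups of the series, no gene passed the threshold of an edgeR adjusted p under 0.05 among 13169 tested (0%), and none did with the experiment number added as a block. At an unadjusted p under 0.05, 67 genes were lower at 150 min (0.509%) and 52 higher (0.395%). With the block, 219 were lower (1.66%) and 187 higher (1.42%), and the smallest adjusted p was 0.0652. That fit was the main test. An alternative, a paired edgeR fit of these 8 libraries alone, takes the spread from them only, and there 14 of 11428 genes passed (were called), of which 12 were lower at 150 min (0.105%) and 2 higher (0.0175%). The lower genes described here were Cxcr4, Dusp1, Fbxo32, Rhob, Fosb, Klf2, Egr3, Pcdhgb5, Klf4, Bhlhe40 and Gm6377, and the higher genes were F630028O10Rik and Sesn1. Of the 14, 7 were members of the lists of immediate early genes, AP-1 factors, Krüppel-like factors, MAP kinase phosphatases or clock genes (Dusp1, Rhob, Fosb, Klf2, Egr3, Klf4 and Bhlhe40). These lists had 30, 12, 10, 9 and 14 members among the 11428 genes, of which 0.105% were called lower. The FOXO list (Fbxo32 and Sesn1) and the chemoattractant receptors (Cxcr4) also held called genes. All 24 lists were chosen with earlier results of these data known, so these counts are descriptive. Both fits gave similar fold changes, and the interval was narrower in the paired fit, as the plot of fold changes shows. The calls of single genes described here rest on that paired fit unless another is named. Leaving out experiment 1, 2, 3 or 4 from the paired fit left 3, 4, 60 and 15 genes, and Cxcr4 passed in each of those 4 fits.

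**Figure D1:**
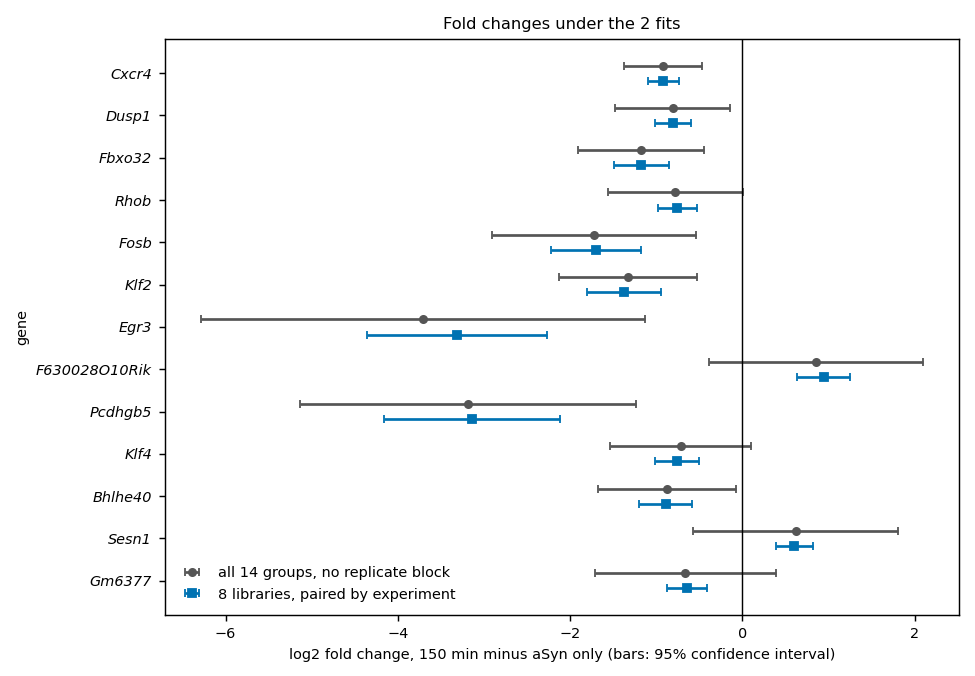
Log2 fold change (150 min minus aSyn only, horizontal axis) of 13 genes called in the paired fit, with 95% confidence intervals. Grey circles are the fit over all 14 groups without a block and blue squares the paired fit of the 8 libraries. Estimates lie close to each other, at -0.92 in both for Cxcr4, while the grey intervals are wider and cross 0 for Rhob, F630028O10Rik, Klf4, Sesn1 and Gm6377.

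RefSeq promoter sequences (GRCm38.p6) were found for 9 of the 14 genes, and the 250 bases before the start were searched on both strands for 7 motifs: the cyclic AMP response element TGACGTCA and its core TGACG, which the full element holds on both strands, the AP-1 site TGANTCA, the CArG box bound by serum response factor, the MEF2 site, the FOXO site GTAAACA and the E-box CACGTG. The windows of the receptor gene Cxcr4 and of 3 early-response genes of different families that were lower together at 150 min are printed, 5′ to 3′ on the strand of the gene, with matches in capitals except those of the short core. They lie at chr1:128592300-128592549 (minus strand), chr17:26508473-26508722 (minus strand), chr7:19310046-19310295 (minus strand) and chr8:72318812-72319061 (plus strand).
Cxcr4: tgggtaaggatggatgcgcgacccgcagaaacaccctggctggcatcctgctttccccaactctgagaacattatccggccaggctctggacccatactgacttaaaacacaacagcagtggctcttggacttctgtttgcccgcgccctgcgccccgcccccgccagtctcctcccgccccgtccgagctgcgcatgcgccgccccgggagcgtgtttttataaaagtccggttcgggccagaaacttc
Dusp1: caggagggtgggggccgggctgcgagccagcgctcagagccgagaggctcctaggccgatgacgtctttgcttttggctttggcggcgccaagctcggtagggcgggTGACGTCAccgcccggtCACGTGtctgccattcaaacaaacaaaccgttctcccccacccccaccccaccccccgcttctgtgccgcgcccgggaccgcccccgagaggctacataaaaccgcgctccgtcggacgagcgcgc
Fosb: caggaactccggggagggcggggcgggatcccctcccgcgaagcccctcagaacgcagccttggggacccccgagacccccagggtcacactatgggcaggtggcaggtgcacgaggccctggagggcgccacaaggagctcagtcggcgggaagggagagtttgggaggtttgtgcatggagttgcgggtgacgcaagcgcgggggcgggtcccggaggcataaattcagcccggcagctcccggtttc
Klf2: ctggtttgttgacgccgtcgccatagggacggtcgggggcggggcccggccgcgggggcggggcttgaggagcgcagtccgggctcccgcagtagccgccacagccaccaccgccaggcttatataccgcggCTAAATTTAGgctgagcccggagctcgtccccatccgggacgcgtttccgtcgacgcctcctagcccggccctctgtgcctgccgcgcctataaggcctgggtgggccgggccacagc
The Dusp1 promoter held TGACGTCA, starting 143 bases before the start, a motif present in 1.56% of 32536 promoters of this length, and the E-box, starting 126 bases before it, present in 6.04%. The Klf2 promoter held a MEF2 site starting 118 bases before the start, present in 2.89% of promoters. The core TGACG, present in 17.9% of promoters, was found 3 times in Dusp1, counting both strands of the full element, and 1 time each in Fosb, Klf2, Klf4 and 1 of the 2 windows of Sesn1. None of the 7 motifs was in the window of Cxcr4. Klf4 also held an E-box 182 bases before its start. AP-1 sites, CArG boxes and FOXO sites, which are in 6.73%, 1.48% and 3.17% of promoters, were in none of the 9.

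Cxcr4 (chromosome 1, 128588199 to 128592293, minus strand in GENCODE M21) was lower at 150 min in every experiment. Its level was 163, 198, 148 and 122 CPM in the aSyn-only libraries of experiments 1 to 4 and 83.5, 94.99, 93.3 and 61.7 CPM at 150 min. The groups did not overlap, which was so for 73 lower genes (0.554% of those tested) and 50 higher genes (0.38%). The log2 fold change was -0.92 (SE 0.22, adjusted p in edgeR 1 over all groups), and -0.92 in the paired fit (SE 0.08, adjusted p in edgeR 0.00106). With 1 experiment left out, the paired edgeR adjusted p was between 9.91e-05 and 0.0461. Of the 16 chemoattractant receptors tested in the paired fit, Cxcr4 was the only one called. The 20 receptors tested over all groups had a median log2 fold change of 0.13, with 8 negative, against a median of -0.0036 for all genes.

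**Figure D2:**
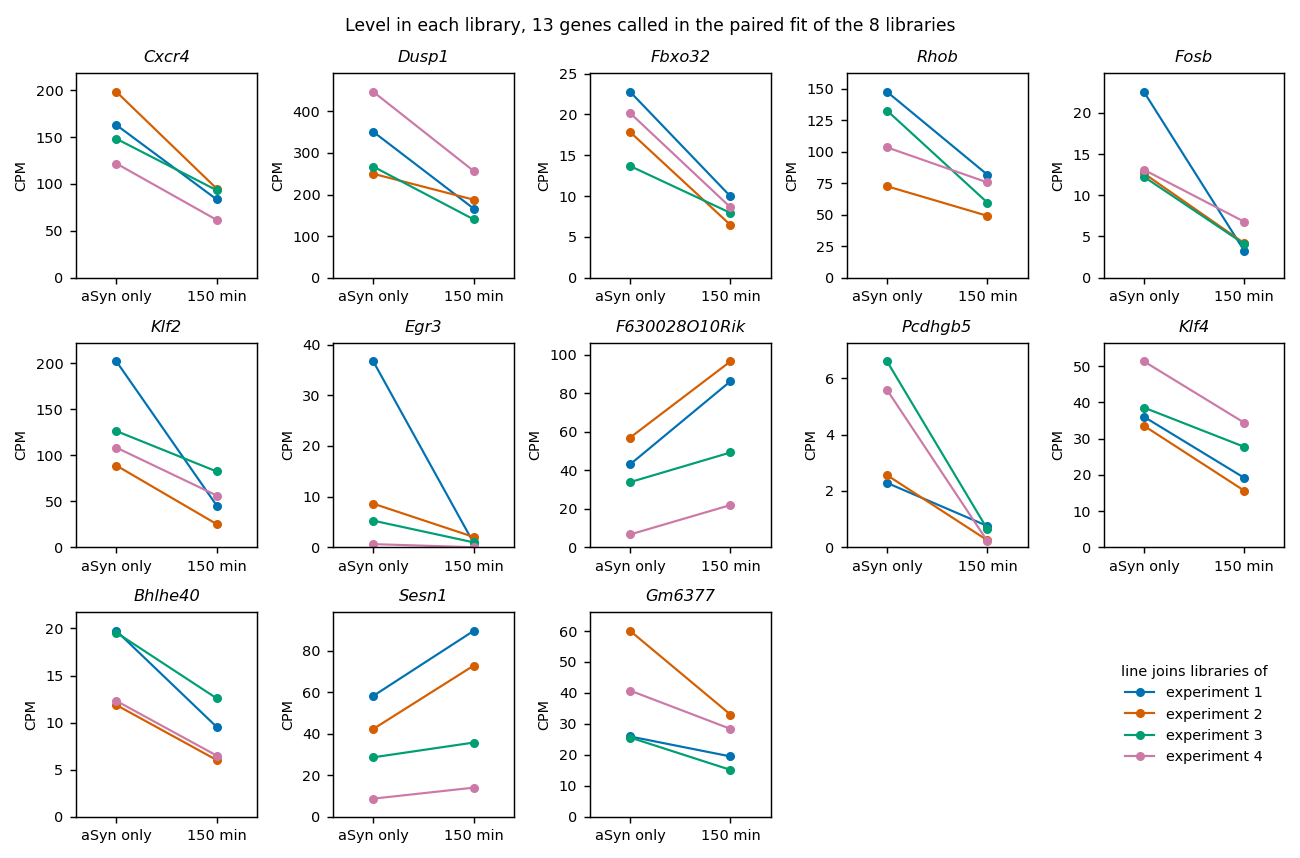
Level in CPM (vertical axes, from 0) of 13 genes called in the paired fit, in the aSyn-only library and the 150 min library of each experiment, joined by a line. All 4 lines fall for 11 genes and rise for F630028O10Rik and Sesn1. The levels of Sesn1 in experiment 4 (8.73 and 14.0 CPM) lie below those of the other experiments in both groups.

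Among the AP-1 subunits, Fosb was the one called in the paired fit. It had 22.5, 12.6, 12.2 and 13.1 CPM in aSyn-only cells and 3.26, 4.18, 4.08 and 6.79 CPM at 150 min, so the groups did not overlap. The log2 fold change was -1.72 (SE 0.59, adjusted p in edgeR 1), and -1.70 in the paired fit (SE 0.24, adjusted p in edgeR 0.0195). The aSyn-only library of experiment 1 was well above the other 3, and without that experiment the paired edgeR adjusted p was 0.145, and without experiment 2 it was 0.172. Mafk and Maff, small Maf proteins without an activation domain, were also below every aSyn-only library: Mafk had 22.2 to 24.2 CPM in aSyn-only cells and 15.5 to 19.7 CPM at 150 min, and Maff 4.97 to 7.23 and 2.19 to 4.18 CPM. Neither passed in the paired fit (adjusted p in edgeR 0.330 and 0.497). Jun, the main partner of FOS proteins, averaged 82.6 CPM against 56.5 CPM, a gap that lay mostly in experiment 4 (142 and 59.4 CPM). Fos, the prototype of the family, averaged 206 CPM in aSyn-only cells and 184 CPM at 150 min, and its log2 ratio was negative in experiments 1 and 3 and positive in 2 and 4. Of the 12 AP-1 factors, 10 had a negative log2 fold change, against 50.9% of all genes. The median was -0.43 over all groups, -0.31 with the block and -0.32 in the paired fit. Per experiment the median was -0.20, -0.21, -0.69 and -0.21. Of the 12, 6 were lower in all 4 pairs, against 7.54% of all genes.

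Egr3, a zinc finger factor of the EGR family, had 36.7, 8.60, 5.25 and 0.611 CPM in aSyn-only cells. At 150 min it had 0.836, 2.03 and 0.961 CPM in experiments 1 to 3 and no count in experiment 4, where 3 counts would be 0.219 CPM. Each 150 min library was below its partner, but the groups overlapped because the aSyn-only level itself spanned a wide range, from 7 to 498 counts. The paired log2 fold change was -3.31 (SE 0.48, adjusted p in edgeR 0.0199), and without experiment 1 it was -2.39 (adjusted p in edgeR 0.331). Rhob, a small GTPase of endosomes and the actin cytoskeleton that is itself an immediate early gene, had 147, 72.5, 133 and 103 CPM in aSyn-only cells and 81.7, 49.1, 59.6 and 75.6 CPM at 150 min. Its paired log2 fold change was -0.76 (SE 0.10, adjusted p in edgeR 0.0195), with overlapping groups. That call was lost without experiment 1 or 2 (edgeR adjusted p 0.294 and 0.143). Mcl1, which encodes an anti-apoptotic BCL2 relative, had 601 to 709.7 CPM in aSyn-only cells and 510.4 to 565 CPM at 150 min without overlap, but was not called in the paired fit (adjusted p in edgeR 0.184). Of the 30 tested members of this second list of immediate early genes, 23 had a negative log2 fold change, against 50.9% of all genes. In all 4 pairs 11 were lower, against 7.54% of all genes. The median was -0.20, and -0.33, -0.23, -0.27 and -0.17 by experiment.

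Dusp1 (chromosome 17, 26505590 to 26562128) had 351, 249.9, 267.2 and 447 CPM in aSyn-only cells and 166, 188, 140.3 and 256.7 CPM at 150 min. Each 150 min library was lower than its partner, and the groups overlapped through the high level of experiment 4. The paired log2 fold change was -0.80 (SE 0.10, adjusted p in edgeR 0.00606), against -0.81 (SE 0.33, adjusted p in edgeR 1) over all groups, and without experiment 1 it was -0.72 (adjusted p in edgeR 0.103). The annotated Dusp1 locus overlaps 2 genes on its own strand and 2 on the other, so some counts could belong to them. Of the 15 tested MAP kinase phosphatases and Sprouty proteins, 8 had a negative log2 fold change, and the median was -0.05, or 0.04 with the block. Dusp2, another phosphatase of the family, had 61.5 and 174 CPM in experiment 4 and 6.04 to 13.7 CPM in the other 6 libraries.

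Klf2 had 202, 88.9, 126 and 108 CPM in aSyn-only cells and 45.3, 25.1, 82.4 and 56.3 CPM at 150 min, without overlap. Its log2 fold change was -1.33 (SE 0.40, adjusted p in edgeR 1), and -1.37 in the paired fit (SE 0.20, adjusted p in edgeR 0.0195). Without experiment 1 or 2 the paired edgeR adjusted p was 0.196 and 0.193. Klf4 had 36.0, 33.5, 38.6 and 51.3 CPM in aSyn-only cells and 19.2, 15.6, 27.7 and 34.4 CPM at 150 min. Only the 150 min library of experiment 4 reached into the aSyn-only range. Its paired log2 fold change was -0.76 (SE 0.12, adjusted p in edgeR 0.0268), which was 0.331 without experiment 1 and 0.283 without experiment 2. Klf6, another early-response member, averaged 536 CPM and 416 CPM (paired, adjusted p 0.210 in edgeR). Of the 12 tested Krüppel-like factors, 6 had a negative log2 fold change, and the median was -0.01, or 0.03 when libraries were scaled by their totals.

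Bhlhe40, a repressor that is both a clock component and an early-response gene, had 19.7, 11.9, 19.6 and 12.3 CPM in aSyn-only cells and 9.53, 6.02, 12.6 and 6.49 CPM at 150 min. Its paired log2 fold change was -0.89 (SE 0.14, adjusted p in edgeR 0.0344), and without experiment 1, 2 or 4 the edgeR adjusted p was 0.361, 0.283 and 0.0577. Per1, a clock repressor that also responds acutely to cyclic AMP and glucocorticoids, had 18.6, 20.9, 24.6 and 21.4 CPM and 10.04, 12.5, 15.1 and 16.6 CPM, which did not overlap. It was not called in the paired fit (log2 fold change -0.67, SE 0.13, adjusted p in edgeR 0.0950). Of the 14 tested clock genes, 11 had a negative log2 fold change and 5 were lower in all 4 pairs, with a median of -0.16. Over all genes these shares were 50.9% and 7.54%. Arntl, which encodes the activator of the clock, averaged 7.25 CPM in aSyn-only cells and 8.89 CPM at 150 min.

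Fbxo32 (chromosome 15, 58175879 to 58214932, with 1 gene annotated on the other strand) encodes the ubiquitin ligase subunit atrogin-1, a target of FOXO factors in muscle. It had 22.8, 17.8, 13.7 and 20.2 CPM in aSyn-only cells and 9.95, 6.45, 7.93 and 8.61 CPM at 150 min. All 150 min libraries were below all aSyn-only libraries. The log2 fold change was -1.18 (SE 0.36, adjusted p in edgeR 1), and -1.17 in the paired fit (SE 0.15, adjusted p in edgeR 0.00932). Without experiment 1 or 2 the paired edgeR adjusted p was 0.157 and 0.143, while without experiment 4 the blocked fit over all groups called Fbxo32 (edgeR adjusted p 0.0288). Sesn1, which encodes sestrin 1, an inhibitor of mTORC1 signalling and another FOXO target, was higher in each pair, with 58.2, 42.3, 28.6 and 8.73 CPM against 89.5, 72.8, 35.7 and 14.0 CPM. The spread between experiments was larger than the difference, and the paired log2 fold change was 0.60 (SE 0.10, adjusted p in edgeR 0.0433). Without experiment 1, 2 or 4 that adjusted p was 0.445, 0.534 and 0.0547. Irs2, an insulin receptor substrate and FOXO target, had 17.3 to 27.8 CPM in aSyn-only cells and 8.25 to 12.7 CPM at 150 min, and Bcl6, a transcriptional repressor, averaged 105 CPM and 135 CPM. Neither was called in the paired fit (adjusted p in edgeR 0.187 and 0.437). The 17 tested FOXO factors and targets were 10 negative and 7 positive, with a median of -0.07 or, with the block, -0.06.

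Pcdhgb5, a protocadherin of the gamma cluster, had 2.28, 2.56, 6.598 and 5.59 CPM in aSyn-only cells and 0.753, 0.246, 0.641 and 0.219 CPM at 150 min. These are 31 to 83 counts against 3 to 9 counts. The annotated gene overlaps 25 genes on its own strand, among them other members of the cluster. Members of this cluster share 3′ exons, and a 3′-end library cannot assign reads among them. The identity of this transcript is therefore uncertain. Its mean was already low at 0 to 60 min, between 0.290 and 0.728 CPM, and was 1.95 CPM at 300 min and 2.34 CPM in acceptors at 150 min. Gm6377, a predicted gene on the X chromosome, had 25.9, 60.04, 25.6 and 40.8 CPM in aSyn-only cells and 19.5, 33.0, 15.1 and 28.4 CPM at 150 min (paired log2 fold change -0.64, SE 0.11, adjusted p in edgeR 0.0448). Gm6377 was not called without experiment 1, 2 or 4 (edgeR adjusted p 0.187, 0.572 and 0.0550), nor was Pcdhgb5 without experiment 2 or 4 (0.193 and 0.0547).

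F630028O10Rik is the non-coding transcript from which the microRNA miR-223 of myeloid cells is processed, and the annotated transcript (X chromosome, 96239926 to 96243636, plus strand) contains Mir223. It had 43.0, 56.9, 33.8 and 6.63 CPM in aSyn-only cells and 86.2, 96.5, 49.2 and 21.9 CPM at 150 min. It was higher in each pair while the groups overlapped, since experiment 4 was low in both. The log2 fold change was 0.85 over all groups (SE 0.62) and 0.94 in the paired fit (SE 0.14, adjusted p in edgeR 0.0205), and the blocked value over all groups was 0.95 (SE 0.24, adjusted p in edgeR 0.474). In the paired fit F630028O10Rik was not called without experiment 1 or 2 (edgeR adjusted p 0.331 and 0.177). The level of mature miR-223 was not measured by this assay.

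Beyond these, the genes of at least 5 CPM that were higher in all 4 pairs with the smallest p over all groups were Tmem168, Zfp143, Mindy3, Capn7, 5031425E22Rik, Armt1, Thap11, Ube2w, Uba2, Ddx17, Lactb2 and Pde4dip. None of them was called in any fit described so far, and their log2 fold changes were between 0.28 and 0.60. A gene was higher in all 4 pairs in 7.19% of all cases, so the consistency of these 12 is how they were chosen. Zfp143, a transcription factor of housekeeping promoters, had 14.9, 12.4, 15.2 and 15.0 CPM in aSyn-only cells and 18.4, 21.4, 22.9 and 21.01 CPM at 150 min. The log2 fold change of 0.54 did not pass (SE 0.19, adjusted p in edgeR 1). Ube2w and Uba2 belong to the ubiquitin and SUMO conjugation systems, and Ube2w averaged 17.0 ± 0.539 CPM in aSyn-only cells and 21.3 ± 0.728 CPM at 150 min (SD, n = 4 each). Tmem168, a membrane protein gene, had 29.7 to 45.4 CPM and 37.6 to 61.4 CPM. The corresponding lower genes, other than those already described, were Mtmr10, Rn4.5s, Ggcx and Paip2b. Mtmr10, a myotubularin-related protein, had 33.7, 38.2, 40.5 and 33.2 CPM in aSyn-only cells and 22.2, 22.2, 24.9 and 29.5 CPM at 150 min, without overlap (log2 fold change -0.56, SE 0.17, adjusted p in edgeR 1, and paired 0.137). Rn4.5s, a small RNA repeat transcript, had 117 CPM in the aSyn-only library of experiment 4 and 32.5 to 57.5 CPM in the other 7 libraries. Wee1, a kinase that delays mitosis, had 12.9, 11.2, 11.4 and 17.5 CPM and 11.3, 6.14, 8.73 and 11.5 CPM (log2 fold change -0.49, SE 0.26, adjusted p in edgeR 1).

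Of the lists of inflammatory genes, the 36 tested NF-kB cytokines and regulators had a median of 0.00 with 18 negative, the 16 chemokines -0.08 with 11 negative, and the 37 interferon-stimulated genes -0.05 with 25 negative. Of all genes tested, 50.9% were negative. Ccl2, a monocyte-attracting chemokine, was lower in each pair, at 58.4, 109, 78.7 and 559.9 CPM in aSyn-only cells and 38.7, 97.9, 26.1 and 454 CPM at 150 min, and was not called (paired, adjusted p 0.394 in edgeR). Il6 was higher in each pair but near 0 in experiments 1 to 3, at most 0.492 CPM, and had 9.34 CPM and 40.4 CPM in experiment 4 alone. For degradation, the 43 lysosome genes had a median of -0.02 and the 33 autophagy genes -0.04. The 30 genes of tunnelling nanotube and filopodia machinery had 0.02, and the 40 respiratory chain subunits 0.01. Medians were also between -0.07 and 0.04 for NRF2 targets, cholesterol synthesis, chaperones, the ER and integrated stress response, glycolysis and hypoxia, homeostatic microglia and disease-associated microglia genes. No member of any of these lists was called in the paired fit. Ctsd, the lysosomal protease that cleaves aSyn, averaged 7004 CPM and 6095 CPM. The 30 S-phase genes had a median of -0.10 with 18 negative. The 13 TGF-beta feedback genes had a median of -0.16 with 11 negative. The 30 G2/M genes had -0.23 with 25 negative, but -0.37, -0.26, -0.00 and 0.16 by experiment, so that experiment 4 went the other way.

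**Figure D3:**
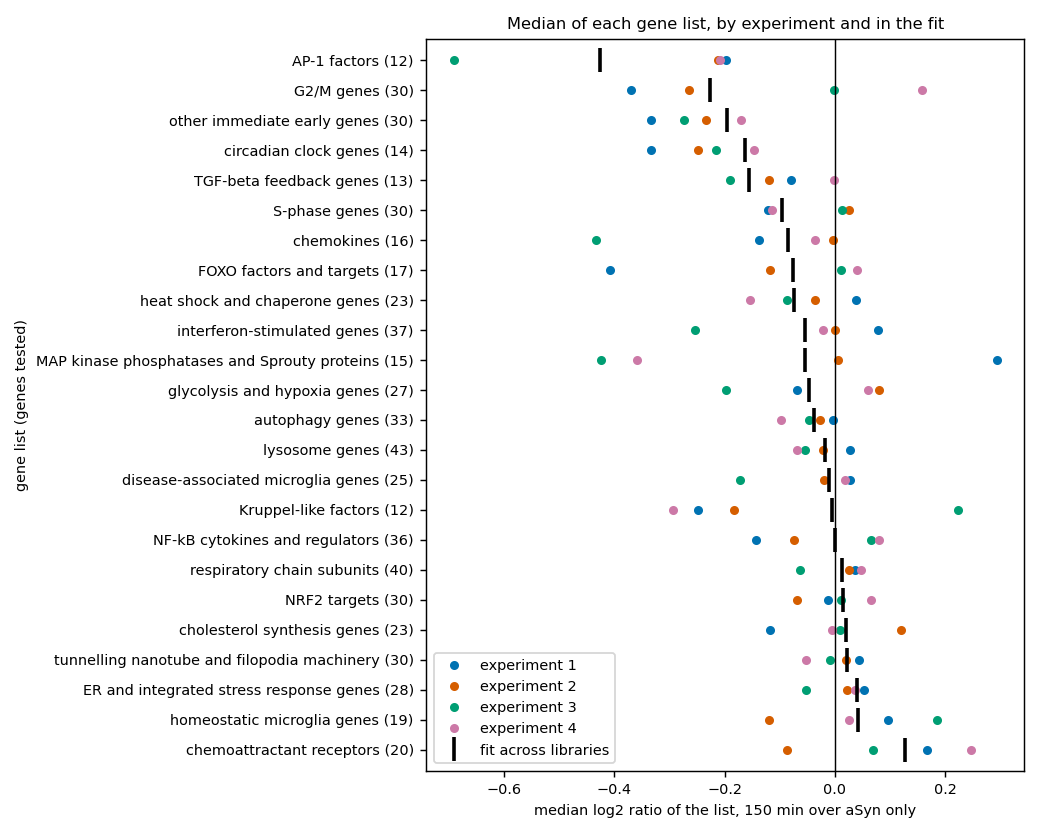
Median log2 ratio of 150 min over aSyn only (horizontal axis) for 24 gene lists, with the number of genes tested in brackets. Coloured points are the 4 experiments and black bars the fit over all groups. The 4 points lie below 0 for AP-1 factors (-0.69 to -0.20), other immediate early genes and clock genes, and by less for TGF-beta feedback genes and autophagy genes. For chemokines they are also below 0 but widely spread (-0.433 to -0.003). They scatter around 0 for the other lists.

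Levels at the other sampled times placed the 150 min values in a sequence. These comparisons share the aSyn-only libraries, so group means are given side by side. Cxcr4 averaged 227.9 CPM at 0 min, 197 at 15 min, 181 at 30 min, 149 at 60 min, 83.4 at 150 min and 72.01 at 300 min, with 158 CPM in aSyn-only cells and 70.6 CPM in untreated cells. Klf2 averaged 176, 188, 193 and 149 CPM at 0, 15, 30 and 60 min, 52.3 CPM at 150 min and 21.3 CPM at 300 min, with 131 CPM in aSyn-only cells and 21.5 CPM in untreated cells. Fbxo32 averaged 22.0, 25.0, 24.5 and 20.8 CPM at 0 to 60 min, 8.24 CPM at 150 min and 5.78 CPM at 300 min, with 18.6 CPM and 6.14 CPM in the aSyn-only and untreated groups. Up to 60 min the means of Klf2 and Fbxo32 were thus above the aSyn-only mean, and at 150 min both lay between the aSyn-only and the untreated mean. The 0 and 60 min groups hold 3 libraries each and lack different experiments, so their means do not cover the same experiments as the aSyn-only mean. With the block, the log2 fold change at 60 min against aSyn only was 0.23 for Klf2 and 0.02 for Fbxo32. Fosb averaged 24.0 CPM at 60 min, 4.58 CPM at 150 min and 2.22 CPM at 300 min, with 2.52 CPM in untreated cells. Rhob had the highest mean at 60 min, 225.5 ± 185 CPM (SD, n = 3), where experiment 1 was far above the others, and 66.5 CPM at 150 min. The median of the AP-1 factors against aSyn-only cells was 0.17 at 60 min, -0.43 at 150 min and -0.60 at 300 min, and that of the other immediate early genes was 0.17, -0.20 and -0.50.

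**Figure D4:**
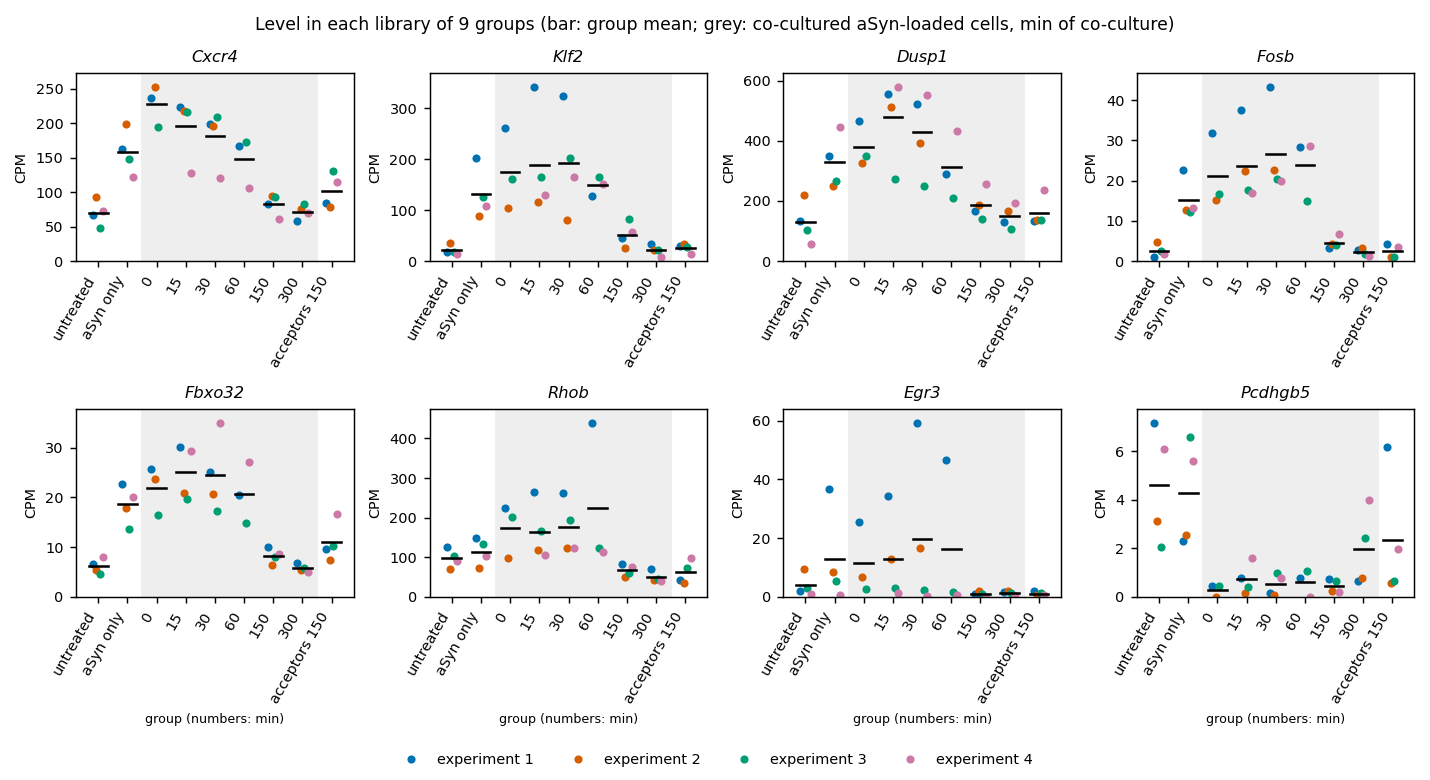
Level in CPM (vertical axes, from 0) of 8 of the called genes in 9 groups. Points are libraries coloured by experiment, bars are group means and the grey field marks aSyn-loaded cells by min of co-culture. Cxcr4, Klf2, Dusp1, Fosb, Fbxo32 and Rhob are high up to 60 min and low at 150 and 300 min, Egr3 spans a wide range up to 60 min, with experiment 1 highest at each of those times, and Pcdhgb5 is low from 0 to 150 min.

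The step from 60 to 150 min uses no aSyn-only library, but it reuses the 150 min libraries. The single genes given here were picked for low values in those libraries, which favours negative values in this step. Over all groups the step had no call, with 346 genes at an unadjusted p under 0.05, and none with the block. The log2 fold change was -0.83 for Cxcr4 (SE 0.24), -1.51 for Klf2 (SE 0.42), -1.34 for Fbxo32 (SE 0.38), -2.38 for Fosb (SE 0.62) and -1.76 for Rhob (SE 0.42), each with an edgeR adjusted p of 1. With the block, Fbxo32, Klf2 and Rhob had an edgeR adjusted p of 0.156. Of the AP-1 factors 10 of 12 and of the other immediate early genes 27 of 30 were negative in this step, with medians of -0.43 and -0.33. Over all genes 6734 of 13169 were negative. Other lists leaned the same way: 11 of 12 Krüppel-like factors, 28 of 36 NF-kB genes and 23 of 30 G2/M genes were negative. Of the respiratory chain subunits only 5 of 40 were. The lean was thus not particular to immediate early genes. No 60 min library of aSyn-loaded cells from experiment 2 was analysed here.

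Against 300 min, 2 genes were higher at 150 min with the block (0.0152% of those tested) and none without it. Zyx, which encodes the focal adhesion protein zyxin, had 169, 128, 104 and 79.2 CPM at 150 min and 60.8, 53.0, 68.0 and 51.6 CPM at 300 min, with no overlap. Its log2 difference was 1.04 (SE 0.20, adjusted p in edgeR 0.0552), and 1.01 with the block (adjusted p in edgeR 1.72e-05). Adgre5, which encodes the adhesion receptor CD97, had 85.5, 68.4, 101 and 67.2 CPM at 150 min and 40.5, 37.5, 59.3 and 28.6 CPM at 300 min. Its log2 difference was 0.96 (SE 0.25, adjusted p in edgeR 1), and 0.97 with the block (adjusted p in edgeR 0.00180). Adgre5 at 150 min was near its aSyn-only mean of 81.1 CPM, and it averaged 3.04 CPM in untreated cells and 5.74 CPM in acceptors at 150 min. Klf2 was also further down at 300 min, by a log2 difference of 1.30 (SE 0.40) that was not called (adjusted p in edgeR 1, with the block 0.158). Cxcr4 differed by 0.21 (SE 0.22), within its error.

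The change in aSyn-loaded cells (150 min minus aSyn only) was then set against the change in acceptors (150 min minus untreated), 2 responses that share no library. The difference of the responses was called for 2 genes (0.0152%), both with a more negative response in aSyn-loaded cells. Skil, a brake on TGF-beta signalling, had 88.5, 108, 95.4 and 95.2 CPM in aSyn-only cells and 76.9, 68.9, 95.6 and 95.1 CPM at 150 min. In acceptors it went from 22.8, 60.4, 39.5 and 30.3 CPM in untreated cells to 84.9, 81.9, 116 and 186 CPM. The difference of responses was -1.82 in log2 units (SE 0.32, adjusted p in edgeR 0.0163). Mgat4a, a glycosyltransferase of N-glycan branching, had 34.0 to 40.3 CPM in aSyn-only cells and 31.9 to 34.8 CPM at 150 min. It rose in acceptors from 18.6 to 25.6 CPM in untreated cells to 36.0 to 44.4 CPM, and the difference of responses was -0.92 (SE 0.17, adjusted p in edgeR 0.0200). For both genes the aSyn-only level was already above the untreated one, and the gap was carried by the acceptors. Without all libraries of experiment 1, 3 or 4 the edgeR adjusted p was 0.841, 0.422 and 0.125 for Skil and 1, 0.104 and 0.125 for Mgat4a, which was also not called without experiment 2 (0.500).

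With the block, 126 genes differed between the responses (0.957%), 54 with a more positive and 72 with a more negative response in aSyn-loaded cells, and 66 without experiment 4, of which 43 were among the 126. Of the 14 genes of the paired fit, Cxcr4, Fbxo32, Klf4 and Sesn1 were among the 126. Those 14 were picked in the same aSyn-only and 150 min libraries, which favours a difference for them. The blocked difference was -1.45 for Cxcr4 (SE 0.31, adjusted p in edgeR 0.0101), -1.99 for Fbxo32 (SE 0.35, adjusted p in edgeR 0.00191), -2.37 for Klf4 (SE 0.44, adjusted p in edgeR 0.00386) and 1.78 for Sesn1 (SE 0.46, adjusted p in edgeR 0.0441). Without the block their edgeR adjusted p was 0.113, 0.464, 0.464 and 1. Klf4 moved towards a similar level from both sides: it averaged 39.9 CPM in aSyn-only cells and 24.2 CPM at 150 min, and 5.44 CPM in untreated cells and 16.8 CPM in acceptors at 150 min. Cxcr4 ended at 83.4 CPM in aSyn-loaded cells and 102 CPM in acceptors, from 158 and 70.6 CPM. Among the other genes with a more negative response were Rnf149, a ubiquitin ligase gene, Csf2rb, the common beta chain of the GM-CSF receptor, and Adgre5. Rn4.5s and Paip2b, named above for low values at 150 min, were also among the 126. Their blocked differences were -1.03 and -0.94 (adjusted p in edgeR 0.0441 and 0.0470). Of the 54 with a more positive response, Dok2, Cnn2, Acsl6, Ints6l and Maf had the smallest p-values. Acsl6 averaged 0 and 0.518 CPM in aSyn-only and 150 min cells, and 0.698 and 0.0332 CPM in untreated cells and acceptors. Its difference thus rests on low counts. Csf2rb averaged 371 CPM and 326 CPM in aSyn-only and 150 min cells, and 129.8 CPM and 313 CPM in untreated cells and acceptors. Maf, a macrophage transcription factor, averaged 334 and 447 CPM, and 517 and 257.3 CPM. Rhob, Klf2, Dusp1, Fosb, Egr3 and Bhlhe40 were not among the 126, and their blocked differences were -0.10, -1.51, -1.04, -1.39, -1.19 and -0.46.

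**Figure D5:**
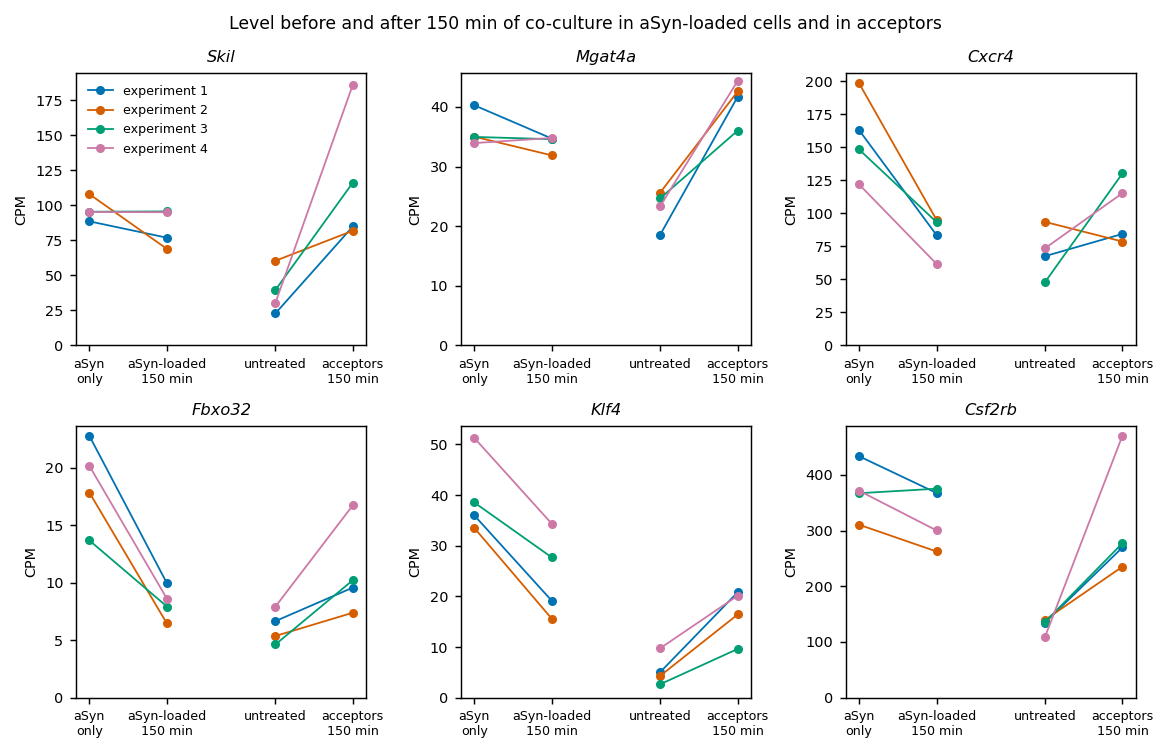
Level in CPM (vertical axes, from 0) of Skil, Mgat4a, Cxcr4, Fbxo32, Klf4 and Csf2rb by experiment. The left lines join aSyn-only with aSyn-loaded cells at 150 min and the right lines untreated cells with acceptors at 150 min. Mgat4a rises in each acceptor line and lies between 31.9 and 40.3 CPM in the aSyn-loaded lines, and Fbxo32 falls on the left and rises on the right in each experiment.

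The precision of the comparison was that of 4 libraries a group. The median standard error of a log2 fold change was 0.29 over all groups and 0.20 with the block. The 95% confidence interval lay within a 2-fold change in either direction for 64.3% of genes, and for 87.7% of the 9037 genes of at least 5 CPM. For these, a change above 2-fold was outside the interval of the fit over all groups.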

How the data were processed

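For 54 libraries the authors gave raw counts by gene symbol, per the file headers, and a normalized signal. That deposited signal equalled count divided by size factor for 100% of values within 0.05 and was used for this check only. Libraries were QuantSeq forward 3′ libraries (50 bp single reads, HiSeq2500, per the labels' protocols). STAR, Partek, DESeq2 and mm10 are named in the submitters' processing notes, without versions or roles. Annotation, counting settings and strand use are not given in the sources used here. Mitochondrially encoded transcripts were not analysed here. Results for 1 gene called in the paired fit and 1 marker are not reported here.

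Counts were tested with edgeR 4.0.16 (R 4.3.3): TMM, the filterByExpr filter by group (minimum count 10; 13169 of 16632 genes left), a quasi-likelihood fit over all 14 groups (52 units, same-numbered untreated libraries summed), and Benjamini-Hochberg adjustment at 0.05 over all genes tested. CPM use TMM-scaled totals. Replicate numbers in the titles pair the libraries. Same-numbered libraries deviated together in all 4 pairs (r = 0.40 to 0.76, across genes), and pairs with different numbers reached at most 0.20. The paired fit holds the 8 libraries alone with the number as a block. No libraries were duplicates (chi-square per degree of freedom of at least 34.7 within the 2 groups). The labels give passage 3 for experiment 1, passage 1 for experiment 2 and passage 2 for experiments 3 and 4, and facility numbers from 110050 on for experiment 4, which was not testable alone. Nothing says that the experiments came from separate animals, so p-values measure the spread between these samples. Of each direction, 12 genes of at least 5 CPM and of 1 sign in all pairs were named by smallest p-value, with list members, genes called in the other contrasts, and Klf2, Cxcr4, Wee1 and Mtmr10. Genes of the paired fit, Il6, Ctsd, Ccl2 and Mbp were named after their values were seen. The comparison, the gene lists and the last 4 genes were chosen with earlier results of these data known. The fits over all groups, with and without the block, were checked on counts simulated without differences between experiments. The paired fit was not checked in this way. Loci are from GENCODE M21 (GRCm38). Figures used matplotlib 3.10.9. DESeq2 1.42.0, other scalings, filters and left-out libraries were alternatives.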

Additional observations from a re-analysis of the deposited data

Results flagged for a closer look

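Of 96 sets of 4 values examined (the 2 groups for each gene of the paired fit and each gene named by its p-value, 4 library measures, and the 4 experiment medians of each gene list), 6 had an extreme value whose gap to its neighbour, as a share of the range, was above the 95% critical value of Dixon's test, and chance gives about 1 in 20. Fosb was highest in the aSyn-only library of experiment 1 (22.5 CPM). Zfp143 was lowest in the aSyn-only library of experiment 2 (12.4 CPM) and Capn7 in that of experiment 1 (44.0 CPM). The aSyn-only library of experiment 4 had the highest share of counts on its 10 most abundant genes (30.1%) and the most genes with a count (14332). The median of the AP-1 factors was lowest in experiment 3 (-0.69). Skil and Mgat4a were called in the test of the difference between the response of aSyn-loaded cells and that of acceptors, with log2 differences of -1.82 and -0.92.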

How the results depend on the processing

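For 150 min against aSyn only, each other scaling, filter and choice of samples over all groups, each left-out library (0 to 0 genes) and the DESeq2 Wald test called 0 genes. Only the paired fit of the 8 libraries (14) and, chosen after seeing the data, the replicate block without experiment 4 (2) called any. The paired fit ranged from 3 to 60 genes with 1 experiment left out. The DESeq2 Wald test with the pairing called 33 and no filter on low counts 162, each including all 14, and library totals without TMM called 13, of which 11 were shared. Against 60 min, the groups compared with a replicate block gave 4 and the block without experiment 4 gave 96. Against 300 min, the replicate block gave 2, DESeq2 size factors, the DESeq2 Wald test and leaving out Rn45s 1 each, the groups compared with the block 336, the block without experiment 4 6, and left-out libraries 0 to 1. For the difference from acceptors (2 genes), the replicate block gave 126, the DESeq2 Wald test 4, no filter 1, only the groups compared 0 (9 with the block), the block without experiment 4 66, and left-out libraries 0 to 3. The median of the other immediate early genes was between -0.28 and -0.14 and that of the AP-1 factors between -0.54 and -0.20 with libraries left out. Signs were compared for Wee1, the genes named by their p-value and the leading genes of the difference from acceptors. None of their fold changes over all groups changed its sign. Calls did change: 31 combinations of gene and setting gained a call and 20 lost one. The cause of these shifts was not tested. Depth was similar between libraries, and the number of experiments limits the precision.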
